A study of Homo sapiens with 6 samples.

Results

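The genes described here are 35 genes of the p53 pathway, most of them direct transcriptional targets of p53. They were followed in HCT116, an established line of human colon cancer cells that carries wild-type p53. A gene was taken up by its symbol where the array held a transcript cluster, the array's gene-level unit, annotated with that symbol alone. Of the 35 genes, 33 had such a cluster, each of them 1. BTG2 and FDXR had none and were not analysed here. A cluster counted as measured where 2 or more of the 6 arrays gave it a log2 signal of 5 or higher, and 29 of the 33 genes met this, among 24721 measured clusters on the array. The other 4 genes stayed below it, SUSD6 between 4.82 and 4.96, CDIP1 between 3.91 and 4.01, SPATA18 between 3.49 and 3.57 and EDA2R between 3.20 and 3.37. The genes just inside this limit were PIDD1, at 5.10 to 5.25, and PLK3, at 5.27 to 6.05.

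All 6 cultures were HCT116 cells that received siRNA at 50 nM through the lipid reagent RNAiMAX and were harvested after 48 h. The 3 groups differed in the siRNA: si(-), the control, and siH19-1 and siH19-2, a pair of siRNAs directed at the imprinted long noncoding RNA H19, with 2 arrays each. No group without transfection was analysed here, and the labels call the replicates biological without saying how the cultures were kept apart, so that the spread between 2 arrays may be partly technical. The comparisons ask which genes changed with each siRNA against the control and where the 2 siRNAs differed from each other.

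p53 is a transcription factor that is held at a low level by the ubiquitin ligase MDM2 and accumulates when DNA damage or other stress breaks that hold. It then switches on genes for cell cycle arrest, DNA repair, cell death and metabolism, and also genes that feed back on p53 itself, MDM2 among them. p53 binds DNA as a tetramer at a pair of neighbouring half-sites. In colon cancer cells with intact p53, the induction of CDKN1A and MDM2 is a common readout of p53 activity.

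Promoter sequence from RefSeq (build GRCh38.p14) was searched for the full consensus site of p53, a pair of 10-base half-sites with no spacer, whose C and G core had to match at all core positions. The window ran from 250 bases before to 50 bases after a transcript start, and 28 of the 35 genes matched an entry by symbol. With at most 2 mismatches, 4 of the 28 genes held a match (14.3%), against 98 of 27305 genes in the whole table (0.359%). With at most 3 mismatches these counts were 7 of 28 (25.0%) and 373 of 27305 (1.37%). The consensus reads alike on both strands, and the allowance for mismatches was chosen after the matches were seen. A match describes letters in this window and says nothing about binding. The following 5 stretches show the matched letters in capitals, for the genes whose values are discussed below, with up to 40 bases on each side but no transcribed bases beyond the match.
MDM2 (chr12:68808883-68808982, plus strand, 2 mismatches): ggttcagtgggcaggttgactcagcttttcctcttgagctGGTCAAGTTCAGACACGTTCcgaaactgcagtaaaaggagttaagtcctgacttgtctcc
DDB2 (chr11:47214929-47214988, plus strand, 1 mismatch): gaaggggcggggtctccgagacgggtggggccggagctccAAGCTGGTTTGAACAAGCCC
FAS (chr10:88991269-88991368, plus strand, 2 mismatches): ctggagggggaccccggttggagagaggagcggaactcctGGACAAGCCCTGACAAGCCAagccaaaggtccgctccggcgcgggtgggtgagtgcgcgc
AEN (chr15:88621266-88621339, plus strand, 2 mismatches): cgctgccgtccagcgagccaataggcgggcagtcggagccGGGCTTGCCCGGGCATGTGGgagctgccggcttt
SESN1 (chr6:109008989-109009077, minus strand, 3 mismatches): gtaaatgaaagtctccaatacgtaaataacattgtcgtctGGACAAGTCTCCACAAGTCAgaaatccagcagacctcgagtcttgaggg
The matched letters of MDM2 lay at -94 to -75 from a start counted as 0, at the internal promoter, and those of DDB2 spanned the start itself. GDF15 and FDXR held the remaining matches, both with 3 mismatches.

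The targeted RNA gave no check of the labels. The cluster annotated to H19 and the microRNA it contains read 4.82 and 5.02 in the control arrays, 4.90 and 4.99 with siH19-1 and 4.95 and 5.02 with siH19-2. These levels overlapped and lay near the limit for a measured cluster, and no fall was detectable (limma adjusted p = 0.938 and 0.738). Every direction given here therefore rests on the array labels. Of 8 markers of colon epithelium, 6 had a mean of at least 5, KRT8 the highest at 13.8, while VIL1 stood at 3.50 and CDH17 was also below the limit. Of 10 markers of other cell types on the array, 1 reached a mean of 5 (ACTA2, at 5.05), and the endothelial marker PECAM1 was lowest at 2.90. The arrays correlated at 0.993 to 0.995 within groups and at 0.974 to 0.987 between groups.

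Against the control, most of the p53 pathway genes were not called in either direction. A gene was called at an adjusted p under 0.05 in limma, with Benjamini-Hochberg adjustment over all 24721 clusters. With siH19-1, 5 of the 29 genes rose, against 2.65% of all clusters, and 1 fell, against 3.56%. With siH19-2, 7 rose, against 10.2% of all clusters, and 2 fell, against 10.8%. For the mean of both siRNAs, 6 rose, against 5.19%, and 1 fell, against 7.17%. Taken in either direction, this was 6 genes with siH19-1, against 6.22% of all clusters, 9 with siH19-2, against 21%, and 7 for the mean, against 12.4%. The median log2 difference of the 29 genes was 0.125 with siH19-1, where all clusters had a median of -0.02, and 0.10 with siH19-2, where all clusters had 0.045. Many of all clusters carry no gene symbol. The 11191 measured genes picked by the same rule as the 29 had a median of -0.035 with either siRNA. Of these, 409 rose and 574 fell with siH19-1, and 1160 rose and 1832 fell with siH19-2. The siH19-2 median of the 29 genes turned to -0.14 when the arrays were scaled to the bacterial spike rows. There all clusters had -0.19, and 3 of the 29 genes rose, against 5.01% of all clusters, and 5 fell, against 19.1%. The siH19-2 median of the 29 genes was 0.53 with scaling to the rows outside transcript clusters, where all clusters had 0.475. Only such rows with a mean log2 of at least 5 entered that scaling. Over the 4 comparisons, 13 genes were called at least once and 16 never. Each comparison alone called 6.22% to 21% of all clusters, and the share called at least once was not counted. The genes that rose with each siRNA in its own comparison were CDKN1A, TP53INP1, TRIAP1 and FBXO22. Both comparisons used the same control arrays, and the share of all clusters that rose in both was not counted. Many of the calls of the 29 genes sat close to the threshold. With all 67528 clusters tested, 1 of the 29 genes rose with siH19-1, against 0.422% of those clusters. With siH19-2 there were 2, against 2.22%. Fewer of all clusters were thus called there as well. Fewer of the 29 genes, and fewer of all clusters, also rose with either siRNA in each fit that left out 1 array. Such a fit kept only 1 array in that group. Without either siH19-1 array, no cluster at all was called with siH19-1. A siH19-1 call lost in those fits was therefore lost for every gene and is not particular to the gene named.

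Both siRNAs were set against the same control arrays, and those arrays differed from each other. Control replicate 1 read higher than replicate 2 for 25 of the 29 genes (86.2%, against 68.3% of all clusters), by more than 0.3 for 12 of them (41.4%, against 21.8%) and by 1.37 for GDF15. The siH19-2 arrays also read higher in replicate 1 for 25 of the 29 genes (52.4% of all clusters), by a median of 0.09. The siH19-1 arrays did so for 12 (59.8%). With the arrays of each group set side by side, both siH19-1 arrays lay above both control arrays for 15 genes (22.2% of all clusters did so) and below them for 3 (27.3%). For siH19-2 the counts were 11 above (32.7%) and 7 below (28.2%).

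**Figure D1:**
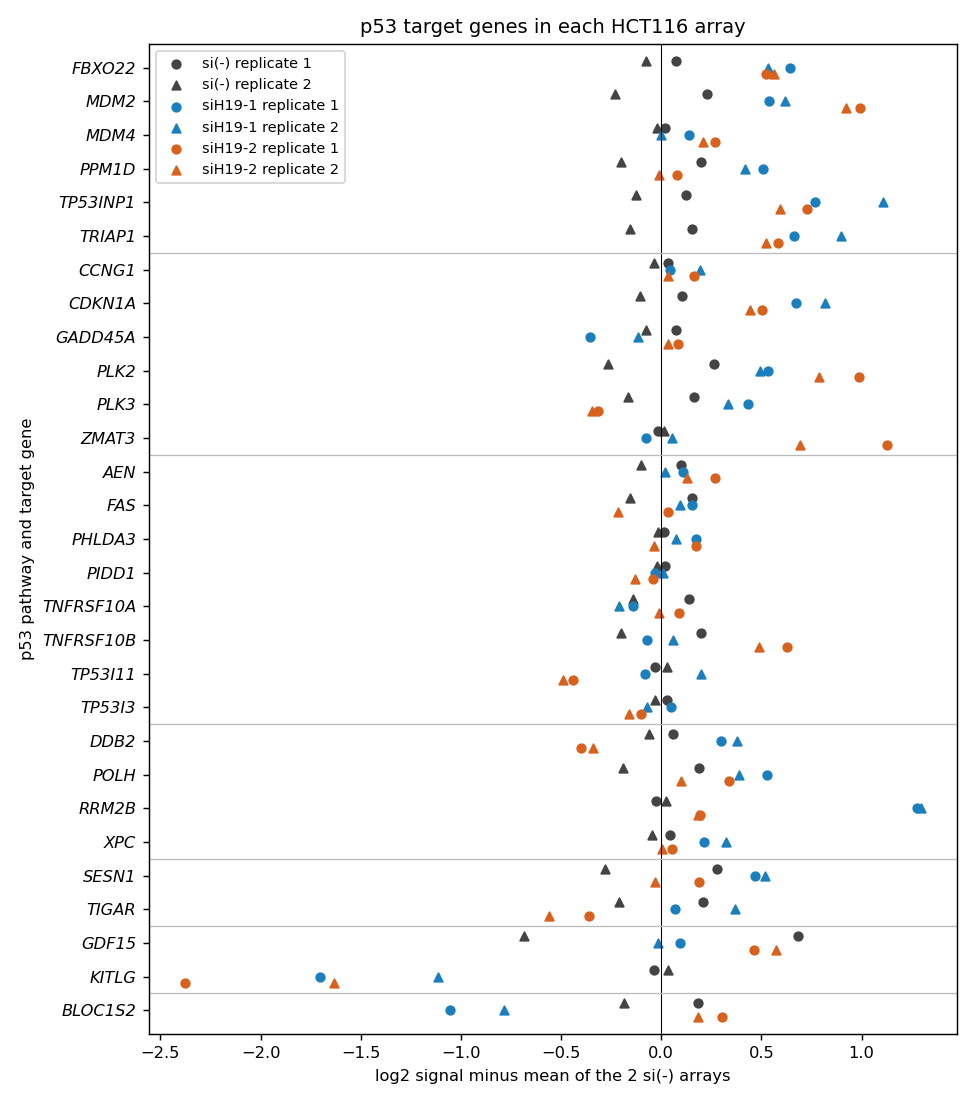
Log2 signal of each of the 29 measured p53 pathway genes in each array, drawn as the difference from the mean of the 2 control arrays (horizontal axis, log2 units), with genes on the vertical axis and groups by colour. The 4 siH19 arrays of CDKN1A, TP53INP1, TRIAP1 and FBXO22 all lie to the right of their control arrays, those of KITLG far to the left, and the control arrays of GDF15 lie 1.37 apart.

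The feedback genes act on p53 or on its downstream survival signals. The roles were chosen with earlier results of these data known. A count by role beside the share of all clusters is therefore a description and no test of the role. Of 6 measured, 3 rose with siH19-1, against 2.65% of all clusters, and 4 with siH19-2, against 10.2%, and 0 fell with either in limma, also at an unadjusted p under 0.05. Counted with the death genes instead, TRIAP1 would leave 2 and 3 feedback genes that rose and give 1 death gene that rose with each siRNA. TP53INP1, a nuclear stress protein that promotes phosphorylation of p53, read 7.33 and 7.08 in the control arrays, 7.97 and 8.31 with siH19-1 and 7.93 and 7.80 with siH19-2. All 4 siH19 arrays lay above both controls, those of siH19-1 the highest. TP53INP1 rose by 0.94 ± 0.16 (SE) with siH19-1 (1.91-fold, limma adjusted p = 0.0327) and by 0.66 ± 0.16 with siH19-2 (1.58-fold, adjusted p = 0.0371). TRIAP1, a small mitochondrial protein that protects cells from caspase activation, read 7.92 and 7.61, then 8.43 and 8.66 with siH19-1, and 8.35 and 8.29 with siH19-2. Its siH19 arrays were again all above the controls. TRIAP1 rose by 0.78 ± 0.15 with siH19-1 (adjusted p = 0.0413) and 0.56 ± 0.15 with siH19-2 (adjusted p = 0.0492). FBXO22, the substrate receptor of a ubiquitin ligase that targets methylated p53, read 8.61 and 8.46 in the controls, 9.18 and 9.07 with siH19-1 and 9.06 and 9.10 with siH19-2. The 4 siH19 arrays lay within a narrow band above both controls. FBXO22 rose by 0.59 ± 0.11 with siH19-1 (1.51-fold, adjusted p = 0.0407) and by 0.55 ± 0.11 with siH19-2 (1.46-fold, adjusted p = 0.0236).

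MDM2, the ligase that marks p53 for degradation, read 12.44 and 11.98 in the control arrays, 12.75 and 12.83 with siH19-1 and 13.20 and 13.13 with siH19-2. The 3 groups formed 3 steps with no overlap, lowest in the control and highest with siH19-2. MDM2 rose by 0.96 ± 0.17 with siH19-2 (1.94-fold, 95% interval 0.53 to 1.38 on the log2 scale, limma adjusted p = 0.0168). With siH19-1 its difference of 0.58 ± 0.17 was not called (adjusted p = 0.122), and neither was the difference of 0.38 between the siRNAs (interval -0.05 to 0.80, adjusted p = 0.19). MDM4, the relative of MDM2 that masks the activation domain of p53, stayed between 7.93 and 8.22 in all 6 arrays. PPM1D, the phosphatase that removes activating phosphates from p53 and its kinases, read 9.69 and 9.29 in the controls, 10.00 and 9.91 with siH19-1 and 9.57 and 9.48 with siH19-2. The siH19-1 arrays of PPM1D were above all others, by 0.47 ± 0.16 over the control, but this was not called (adjusted p = 0.162). The MDM2 call with siH19-2 was lost without either siH19-2 array, with adjusted p up to 0.10 over the 6 settings that each left out 1 array. The calls of TP53INP1, TRIAP1 and FBXO22 with siH19-1 were lost without each single array in turn, while their differences stayed between 0.77 and 1.11, 0.63 and 0.94, and 0.52 and 0.67. With siH19-2, the TP53INP1 call was lost without any control or siH19-2 array, and the TRIAP1 and FBXO22 calls without each array but control replicate 1, with differences down to 0.54, 0.40 and 0.47.

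Among the genes of arrest and growth control, 1 of 6 measured rose with siH19-1, against 2.65% of all clusters, and 3 with siH19-2, against 10.2%. CDKN1A encodes p21, the inhibitor of cyclin-dependent kinases through which p53 arrests the cycle. It read 8.0 and 7.79 in the controls, 8.57 and 8.71 with siH19-1 and 8.40 and 8.34 with siH19-2. All 4 siH19 arrays were above both controls. CDKN1A rose by 0.75 ± 0.12 with siH19-1 (1.68-fold, limma adjusted p = 0.0289) and by 0.48 ± 0.12 with siH19-2 (1.39-fold, adjusted p = 0.0433). Its 2 siRNAs differed by -0.27 (siH19-2 minus siH19-1, interval -0.57 to 0.03), which was not called. Without any single array, neither CDKN1A call passed, with adjusted p of 0.0640 to 0.166 for siH19-1 and 0.0520 to 0.183 for siH19-2.

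ZMAT3 and PLK2 rose with siH19-2. ZMAT3, a zinc finger protein that binds RNA and steers splicing downstream of p53, read 6.73 and 6.76 in the controls, 6.67 and 6.80 with siH19-1, and 7.87 and 7.44 with siH19-2. Controls and siH19-1 arrays lay together, with both siH19-2 arrays well above. ZMAT3 rose by 0.91 ± 0.16 with siH19-2 (1.88-fold, limma adjusted p = 0.0154) and was higher with siH19-2 than with siH19-1 by 0.92 ± 0.16 (adjusted p = 0.0165). PLK2, a polo-like kinase of centriole duplication and stress, read 8.54 and 8.01, then 8.81 and 8.77 with siH19-1, and 9.26 and 9.06 with siH19-2. Its groups stepped upward without overlap, and it rose by 0.89 ± 0.19 with siH19-2 (1.85-fold, adjusted p = 0.0285). With siH19-1 the difference of 0.52 ± 0.19 was not called (adjusted p = 0.193). The ZMAT3 call against the control was lost without either control array or without siH19-2 replicate 1, and its call against siH19-1 without either siH19-1 array or without siH19-2 replicate 1. The PLK2 call was lost without each array but control replicate 1, with differences between 0.62 and 1.15.

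PLK3 moved apart between the siRNAs. This polo-like kinase, which responds to genotoxic stress, read 5.78 and 5.45 in the controls, 6.05 and 5.95 with siH19-1 and 5.30 and 5.27 with siH19-2. The siH19-1 arrays were the highest and the siH19-2 arrays the lowest of the 6, all near the limit for a measured cluster. PLK3 was lower with siH19-2 than with siH19-1 by 0.72 ± 0.13 (limma adjusted p = 0.0208), a call lost without any of the 4 siH19 arrays. Neither siRNA was called against the control for PLK3. CCNG1, a cyclin that brings a phosphatase to MDM2, stayed between 11.84 and 12.07. GADD45A, a stress protein that binds the replication clamp, stayed between 7.68 and 8.12, and neither gene was called in any comparison.

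The genes of cell death and its receptors gave few calls. Of 11 listed, 8 were measured. In limma, 0 rose with siH19-1, against 2.65% of all clusters, and 0 with siH19-2, against 10.2%. With siH19-1 0 fell, against 3.56%, and with siH19-2 1 fell, against 10.8%. In 8 genes, counts this low lie near those shares. At an unadjusted p under 0.05, TNFRSF10B was the only one of them higher, with siH19-2. TP53I11, a p53-induced gene linked to apoptosis, read 6.17 and 6.23 in the controls, 6.12 and 6.40 with siH19-1 and 5.76 and 5.71 with siH19-2. Both siH19-2 arrays lay below the other 4. TP53I11 fell by 0.47 ± 0.12 on the log2 scale with siH19-2 (limma adjusted p = 0.0469) and was lower than with siH19-1 by 0.53 ± 0.12 (adjusted p = 0.0367). The call against the control was lost without either control array, without either siH19-2 array and under quantile normalization or median centring, and the call between the siRNAs without each of the 6 arrays.

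The death receptors were measured but not called. FAS, the receptor of Fas ligand, read 6.55 and 6.24 in the controls, 6.55 and 6.49 with siH19-1 and 6.43 and 6.18 with siH19-2. The 3 groups of FAS overlapped. TNFRSF10B, a receptor of the death ligand TRAIL, read 8.98 and 8.58 in the controls, 8.71 and 8.84 with siH19-1 and 9.41 and 9.27 with siH19-2. Its siH19-2 arrays were the highest of the 6, 0.56 ± 0.16 over the control (limma adjusted p = 0.0624) and 0.57 ± 0.16 over siH19-1 (adjusted p = 0.0651), both just short of the threshold. Without control replicate 1, TNFRSF10B passed against the control, with a difference of 0.76 (adjusted p = 0.0363), as it did under quantile normalization and median centring. The other TRAIL receptor, TNFRSF10A, stayed between 8.62 and 8.97. AEN, an exonuclease that cuts DNA in apoptosis, stayed between 7.02 and 7.39, PHLDA3, which restrains the kinase Akt, between 5.96 and 6.17, and TP53I3, an oxidoreductase tied to reactive oxygen species, between 5.70 and 5.91. PIDD1, a death-domain protein that activates a caspase, spanned the narrowest range of the 29 genes, 0.15.

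The genes of DNA repair and nucleotide supply held 2 of the 6 genes that differed between the siRNAs, RRM2B and DDB2. Of all clusters, 18.2% differed in that comparison. RRM2B, the p53-induced small subunit of ribonucleotide reductase, read 9.52 and 9.57 in the controls, 10.82 and 10.84 with siH19-1 and 9.74 and 9.73 with siH19-2. The siH19-1 arrays stood more than 1 log2 unit above all others, and the replicates of each group were within 0.05 of each other. RRM2B rose by 1.29 ± 0.10 with siH19-1 (2.44-fold, limma adjusted p = 0.00828). With siH19-2 it was higher by 0.19 (interval -0.06 to 0.44), which was not called. The siRNAs differed directly by -1.10 ± 0.10 (2.14-fold lower with siH19-2, adjusted p = 0.00457), and this call remained without each single array. The call against the control was lost without either siH19-1 array, as was that of every other cluster, although the difference stayed between 1.26 and 1.31.

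DDB2, which recognises ultraviolet damage in chromatin, read 7.99 and 7.87 in the controls, 8.23 and 8.31 with siH19-1 and 7.53 and 7.59 with siH19-2. The siH19-1 arrays were above and the siH19-2 arrays below both controls. Neither difference from the control was called, 0.34 ± 0.10 with siH19-1 (limma adjusted p = 0.127) and -0.37 ± 0.10 with siH19-2 (adjusted p = 0.0548), which became 0.06 when the arrays were scaled to the rows outside transcript clusters and passed under quantile normalization and median centring. The siRNAs differed directly by -0.71 ± 0.10 (1.64-fold lower with siH19-2, adjusted p = 0.0104), lost without any of the 4 siH19 arrays. XPC, the partner of DDB2 in damage recognition, read 6.53 and 6.44 in the controls, 6.70 and 6.81 with siH19-1 and 6.54 and 6.49 with siH19-2. POLH, the polymerase that copies past ultraviolet lesions, read 8.31 and 7.93, then 8.65 and 8.51 with siH19-1, and 8.46 and 8.22 with siH19-2. For both genes the siH19-1 arrays were the highest, by 0.27 ± 0.10 for XPC (adjusted p = 0.179) and 0.46 ± 0.17 for POLH (adjusted p = 0.183), and neither was called.

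The 2 metabolic genes were not called in any comparison. TIGAR, a phosphatase that lowers glycolytic flux, read 7.45 and 7.03 in the controls, 7.31 and 7.61 with siH19-1 and 6.88 and 6.68 with siH19-2. Its siH19-2 arrays were the lowest, by 0.68 ± 0.19 against siH19-1 (limma adjusted p = 0.0570). That difference passed when either control array was left out, with the lowest adjusted p at 0.0405. SESN1, a sestrin that restrains growth signalling through mTOR, read 6.93 and 6.37, then 7.12 and 7.17 with siH19-1, and 6.84 and 6.62 with siH19-2. The siH19-1 arrays of SESN1 lay above the rest by 0.50 ± 0.20 over the control (adjusted p = 0.219).

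KITLG and GDF15 encode secreted factors. KITLG, the ligand of the receptor KIT, carried the largest fall among the 29 genes. It read 15.90 and 15.97 in the controls, 14.23 and 14.82 with siH19-1 and 13.56 and 14.30 with siH19-2. All 4 siH19 arrays were more than 1 log2 unit below both controls, and the arrays of the 2 siRNAs overlapped. KITLG fell by 2.01 ± 0.30 on the log2 scale with siH19-2 (4.01-fold lower, limma adjusted p = 0.00974). The siH19-1 difference of -1.41 ± 0.30 was not called (adjusted p = 0.0527). For the mean of both siRNAs KITLG fell by 1.71 (adjusted p = 0.0159), lost without either control array, while the siH19-2 call remained without each single array.

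GDF15, a stress cytokine of the TGF-beta family, showed no order among the groups. It read 9.78 and 8.41 in the controls, 9.19 and 9.08 with siH19-1 and 9.56 and 9.67 with siH19-2. The 2 control arrays enclosed the other arrays. Its difference with siH19-2 was 0.52 (interval -0.51 to 1.55), 1.21 without control replicate 1 (limma adjusted p = 0.0196) and -0.17 without control replicate 2 (adjusted p = 0.453). With siH19-1 it was 0.04, and 0.73 and -0.65 without those control arrays. The difference between the siRNAs, 0.48, passed without either control array (adjusted p = 0.0428 and 0.0433), with no change in its size.

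BLOC1S2, a subunit of a complex that positions lysosomes, read 8.52 and 8.15 in the controls, 7.28 and 7.55 with siH19-1 and 8.64 and 8.52 with siH19-2. Only the siH19-1 arrays stood apart, below all others. BLOC1S2 fell by 0.92 ± 0.17 on the log2 scale with siH19-1 (1.89-fold lower, limma adjusted p = 0.0373) and was higher with siH19-2 than with siH19-1 by 1.17 ± 0.17 (adjusted p = 0.0103). The call against the control was lost without each array but control replicate 2, and the call between the siRNAs without any of the 4 siH19 arrays.

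**Figure D2:**
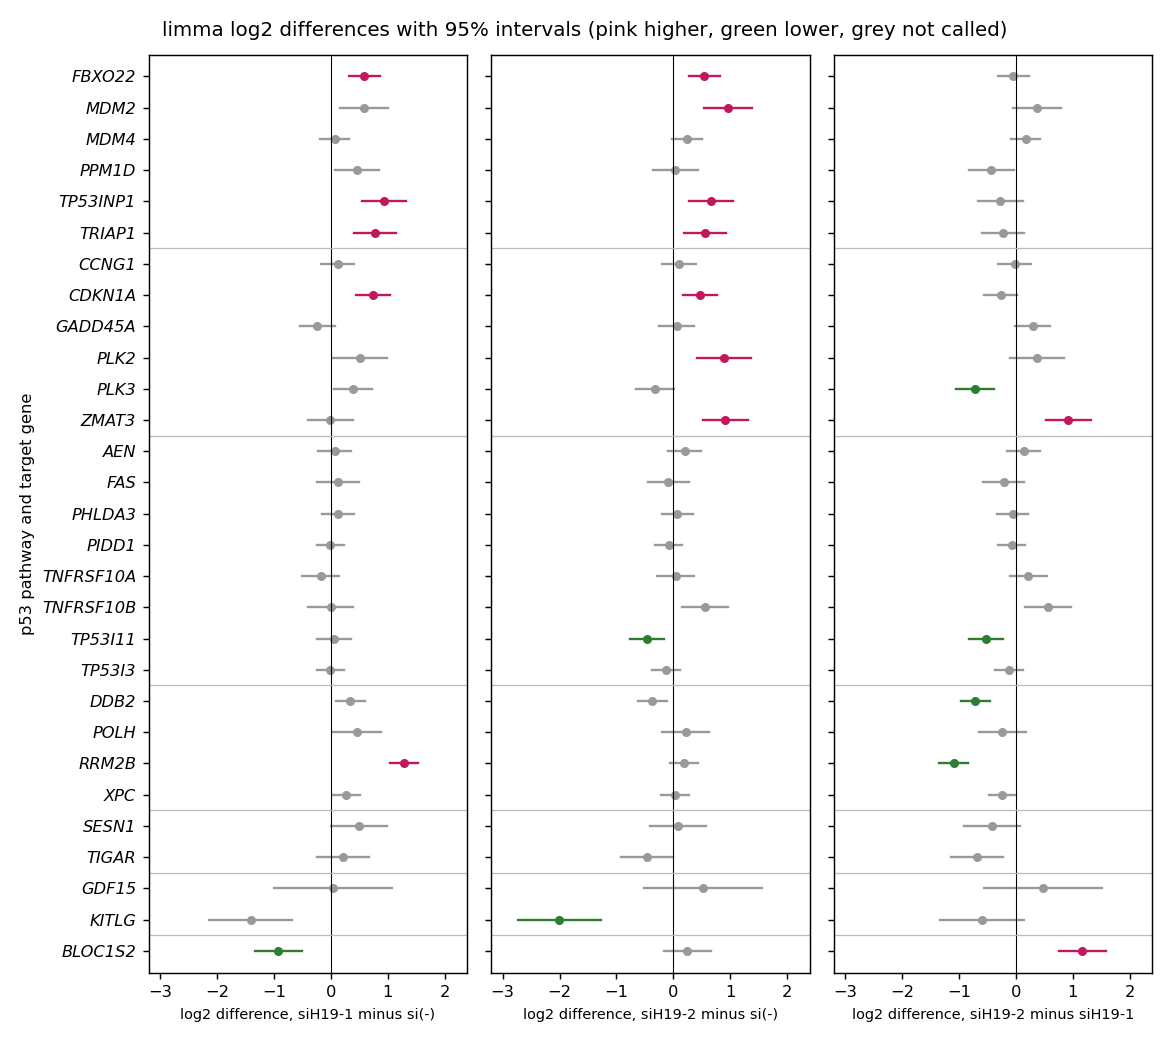
Log2 differences of the 29 measured genes (horizontal axes, log2 units) for siH19-1 minus si(-), siH19-2 minus si(-) and siH19-2 minus siH19-1, with 95% intervals from limma as bars, genes grouped by role on the vertical axis, and called genes in pink (higher) or green (lower). RRM2B is at 1.29 with siH19-1 and 0.19 with siH19-2, and KITLG reaches -2.01 with siH19-2. The death genes lie between -0.175 and 0.125 with siH19-1 and between -0.465 and 0.56 with siH19-2. Between the siRNAs they lie from -0.525 to 0.565.

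Set directly against each other, the siRNAs differed for 6 of the 29 genes, against 18.2% of all clusters. BLOC1S2 and ZMAT3 were higher with siH19-2, against 9.76% of all clusters called higher. RRM2B, PLK3, DDB2 and TP53I11 were lower with siH19-2, against 8.42% of all clusters called lower. The median difference was -0.12 for the 29 genes and 0.06 for all clusters. With scaling to the rows outside transcript clusters it turned to 0.25 for the genes, with 0.43 for all clusters. Under that scaling 10 genes were higher with siH19-2, against 42.6% of all clusters, and 1 lower, against 3.94%. Both siH19-2 arrays lay above both siH19-1 arrays for 10 genes (36.7% of all clusters) and below them for 15 (27%). None of the 4 genes that rose with each siRNA was called between the siRNAs. Their intervals were -0.57 to 0.03 for CDKN1A, -0.67 to 0.12 for TP53INP1, -0.59 to 0.14 for TRIAP1 and -0.32 to 0.23 for FBXO22, so that differences up to these bounds lie within the error of 2 arrays a group.

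Of 30 listed genes that act upstream of p53, 25 were measured. With siH19-1, 2 rose, against 2.65% of all clusters, and 1 fell, against 3.56%. With siH19-2, 3 rose and 3 fell, against 10.2% and 10.8%. Between the siRNAs, 2 were higher and 4 lower with siH19-2, against 9.76% and 8.42%. HIPK2, a kinase that phosphorylates p53, read 11.09 and 11.07 in the controls, 11.99 and 11.95 with siH19-1 and 10.00 and 10.41 with siH19-2. It moved in opposite directions, rising by 0.89 ± 0.16 with siH19-1 (limma adjusted p = 0.0353) and dropping by 0.88 ± 0.16 with siH19-2 (adjusted p = 0.0169). The direct difference of -1.77 ± 0.16 for HIPK2 (adjusted p = 0.00436) was called without each single array, whereas the siH19-1 call was lost without any control or siH19-1 array, and the siH19-2 call without either control array or siH19-2 replicate 1. SETD7, a methyltransferase of histone and p53 lysines, rose by 1.49 ± 0.17 with siH19-1 (adjusted p = 0.0133). USP7, the deubiquitinase of MDM2 and p53, dropped by 0.83 ± 0.12 with siH19-2 (adjusted p = 0.00864). Neither was called with the other siRNA, SETD7 at 0.28 with siH19-2 (limma adjusted p = 0.295) and USP7 at 0.005 with siH19-1 (adjusted p = 0.967). The SETD7 call was lost without control replicate 1 or either siH19-1 array, and the USP7 call without siH19-2 replicate 1. The median difference of the regulators was -0.05 with siH19-1 and -0.07 with siH19-2.

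A further 60 p53 target genes from a general list gave 44 that were measured. With siH19-1, 3 rose and 0 fell in limma, against 2.65% and 3.56% of all clusters (14 had an unadjusted p under 0.05, as had 5525 of the 24721 clusters). With siH19-2, 6 rose and 3 fell, against 10.2% and 10.8%. Their medians were 0.06 and -0.11. PMAIP1, the gene of the cell death protein NOXA, read 7.70 and 6.83 in the controls, 9.63 and 9.52 with siH19-1 and 10.08 and 9.72 with siH19-2. All 4 siH19 arrays of PMAIP1 were far above both controls. It rose by 2.31 ± 0.30 with siH19-1 (4.96-fold, limma adjusted p = 0.0165) and by 2.64 ± 0.30 with siH19-2 (6.21-fold, adjusted p = 0.00510). SFN, the cell cycle inhibitor known as stratifin, read 12.80 and 12.26, then 14.11 and 13.82 with siH19-1, and 12.29 and 11.81 with siH19-2. The siH19-1 arrays of SFN stood above the other 4. SFN rose by 1.44 ± 0.25 with siH19-1 (adjusted p = 0.0343), and the siRNAs differed directly by -1.92 ± 0.25 (adjusted p = 0.00859). PERP, a membrane protein of desmosomes and apoptosis, rose by 1.26 ± 0.18 with siH19-2 (adjusted p = 0.00947). E2F7, a p53-induced repressor of cell cycle genes, dropped by 1.89 ± 0.11 with siH19-2 (adjusted p = 0.00248). With siH19-1 neither gene was called, PERP at 0.37 (limma adjusted p = 0.315) and E2F7 at 0.025 (adjusted p = 0.934). The PMAIP1 call with siH19-1 was lost without either siH19-1 array and the PERP call without siH19-2 replicate 1. The SFN call against the control was lost without each array, and its direct call without either siH19-1 array. The PMAIP1 and E2F7 calls with siH19-2 remained without each single array.

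Genes that p53 lowers through p21 and the DREAM repressor complex, most of them mitotic, were the third list. Of 20 listed, 19 were measured. In limma, 4 fell with siH19-1, against 3.56% of all clusters, and 11 with siH19-2, against 10.8%, and 0 rose with either siRNA. When the arrays were scaled to the rows outside transcript clusters, 2 rose with siH19-2, against 49.1% of all clusters. Without that scaling, the median difference of the 19 genes was -0.39 with siH19-1 and -0.84 with siH19-2. There all clusters had -0.02 and 0.045. Between the siRNAs, 6 were lower and 1 higher with siH19-2, against 8.42% and 9.76% of all clusters. The median was -0.45, where all clusters had 0.06. MKI67, the proliferation marker Ki-67, read 15.07 and 14.85 in the controls, 14.23 and 14.14 with siH19-1 and 13.09 and 13.06 with siH19-2. Its 3 groups formed 3 downward steps with no overlap. MKI67 fell by 0.78 ± 0.12 on the log2 scale with siH19-1 (limma adjusted p = 0.0268) and by 1.89 ± 0.12 with siH19-2 (adjusted p = 0.00262). The transcription factor MYBL2 read 10.10 and 9.94, then 9.54 and 9.73 with siH19-1, and 6.57 and 6.98 with siH19-2. MYBL2 dropped by 3.25 ± 0.17 with siH19-2 (9.48-fold lower, adjusted p = 0.00248), and FOXM1, the mitotic transcription factor, by 2.01 ± 0.15 (adjusted p = 0.00287). With siH19-1 neither was called, MYBL2 at -0.385 (limma adjusted p = 0.261) and FOXM1 at -0.715 (adjusted p = 0.0512). The MKI67 call with siH19-1 was lost without each array but control replicate 2. The count of genes that fell with siH19-1 was 0 without control replicate 1 or without any array of either siRNA and 2 without control replicate 2. The count with siH19-2 ranged from 4, without siH19-2 replicate 2, to 13, without control replicate 2. Control replicate 1 read higher than replicate 2 for all 19 measured genes of this list (68.3% of all clusters), by a median of 0.26. With siH19-1, replicate 1 was higher for 18 of the 19 (59.8%), by a median of 0.18. With siH19-2 it was higher for 15 (52.4%), by a median of 0.31. These are bulk measurements, in which fewer cycling cells and less RNA per cell cannot be told apart.

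**Figure D3:**
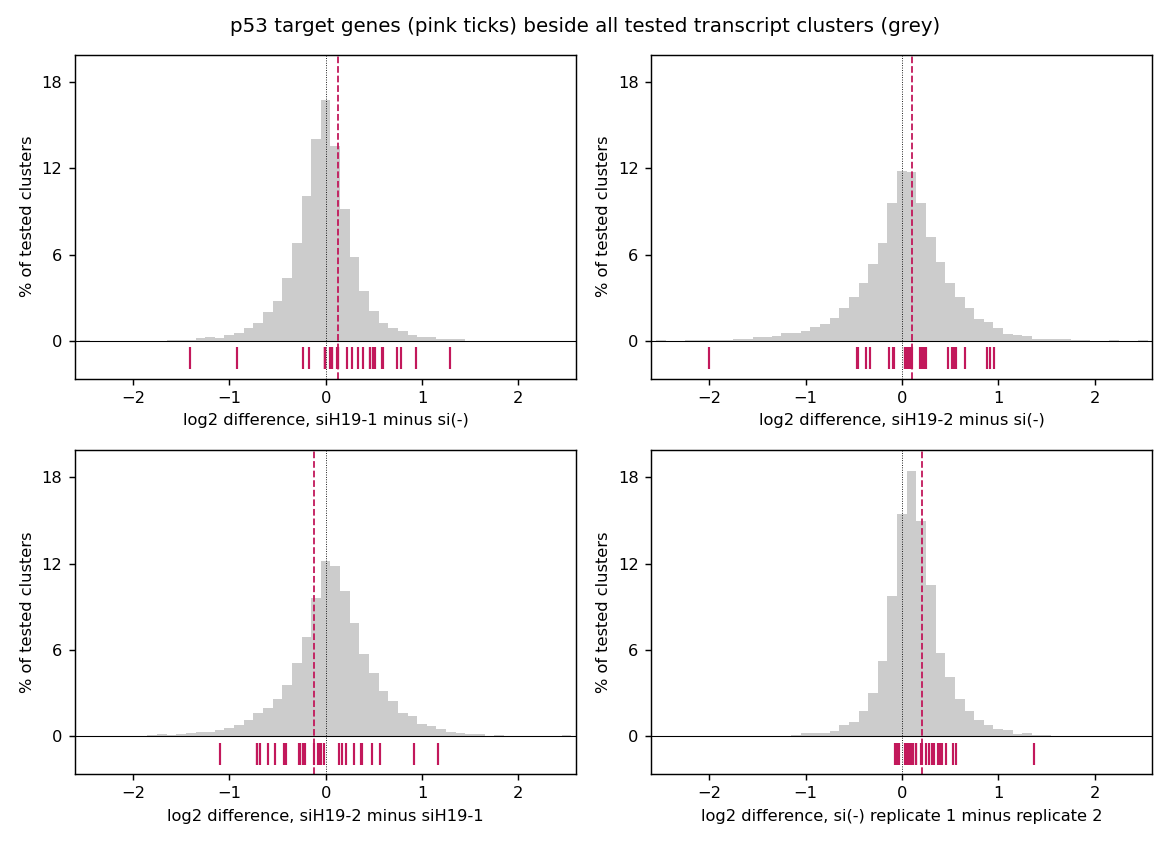
Distribution of log2 differences over all 24721 measured clusters (grey bars, percent of clusters on the vertical axes, log2 difference on the horizontal axes) for both siRNAs against the control, for siH19-2 minus siH19-1 and for control replicate 1 minus replicate 2, with the 29 p53 pathway genes as pink ticks and their median as a dashed line. The medians are 0.125, 0.10, -0.12 and 0.21, and most of the genes lie within the bulk of all clusters.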

How the data were processed

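RNA from 6 HCT116 cultures was hybridised to 1 whole-transcript array each, after labelling with the WT PLUS kit, per the labels' protocols. The deposited values are log2 signals made with Affymetrix Expression Console and RMA, per the submitters' processing notes; versions and genome build are not given in the sources used here. RMA brings arrays to a common distribution, so a shift shared by most transcripts would not show. Of 70523 deposited rows, 67528 are transcript clusters, named through the platform annotation.

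Clusters that reached log2 5 on 2 or more arrays entered limma 3.58.1 in R 4.3.3 (1 coefficient per group over all 6 arrays, eBayes with an intensity trend), which left 3 residual degrees of freedom and 2.75 prior ones. Each p is two-sided and Benjamini-Hochberg adjusted over 24721 clusters at a threshold of 0.05. SEs come from this fit, and 2 arrays a group limit the precision. The fit was tested on simulated data. Groups and replicate numbers came from the sample titles.

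The 35 genes, the other gene lists and their roles were chosen with earlier results of these data known. The genes given by name are all measured ones of the 35, and of each other list a selection from the called genes of smallest adjusted p, at most 8 a list. Alternatives covered the intensity trend, the limit on low values, 4 normalizations, the replicate number as a block, the arrays in the fit and each array left out.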

Additional observations from a re-analysis of the deposited data

Results flagged for a closer look

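For 6 of the 29 p53 pathway genes the effect differed between the 2 siRNAs by the direct limma comparison, siH19-2 minus siH19-1. Of all clusters, 18.2% were called in that comparison. RRM2B, which supplies nucleotides for repair, differed by -1.095 on the log2 scale (adjusted p = 0.00457). PLK3, a stress kinase, differed by -0.715 (adjusted p = 0.0208), DDB2, a sensor of ultraviolet damage, by -0.71 (adjusted p = 0.0104), and TP53I11, a gene linked to apoptosis, by -0.525 (adjusted p = 0.0367). In the other direction, BLOC1S2, a lysosome positioning subunit, differed by 1.165 (adjusted p = 0.0103) and ZMAT3, an RNA-binding protein, by 0.92 (adjusted p = 0.0165). Of these calls, only that of RRM2B remained without each single array.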

How the results depend on the processing

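The counts of called genes depended on the processing. With all clusters tested, 1 gene rose for the mean of both siRNAs, against 0.934% of all clusters. With siH19-1, 1 rose, against 0.422%, and 0 fell, against 0.477%. With siH19-2, 2 rose, against 2.22%, and 1 fell, against 2.39%. With a limit of log2 6, 2 fell with siH19-1, against 6.03% of all clusters, and 3 with siH19-2, against 14.6%. There 3 were higher with siH19-2 than with siH19-1, against 14.3%. Quantile normalization gave 3 higher with siH19-2 than with siH19-1, against 9.65% of all clusters. Without the intensity trend, 1 fell with siH19-2, against 10.8%. With only the arrays of the groups compared, 1 rose and 0 fell with siH19-1, against 1.1% and 1.15% of all clusters. In that setting 3 rose with siH19-2, against 6.72%, and 4 were higher between the siRNAs, against 10.3%. Another setting scaled the arrays to the 2272 of 2995 rows outside transcript clusters that had a mean log2 of at least 5. It took the median of all clusters from 0.015 to 0.26 for the mean and from -0.02 to 0.04 for siH19-1. For siH19-2 that median went from 0.045 to 0.475, and between the siRNAs from 0.06 to 0.43. Then 12 genes rose for the mean, against 19.3% of all clusters. With siH19-1, 8 rose, against 3.66%, and 2 fell, against 3.47%. With siH19-2, 21 rose, against 49.1%, and 1 fell, against 4.47%. Between the siRNAs, 10 were higher, against 42.6%, and 1 lower, against 3.94%. Under this scaling the splits of all clusters, higher to lower, were 4782 to 948, 12127 to 1106 and 10531 to 973 for the mean, siH19-2 and the direct comparison, against 1282 to 1772, 2527 to 2676 and 2414 to 2081 without it. Scaling to 8 bacterial spike rows, chosen after seeing the data, gave splits of 783 to 2878, 1239 to 4726 and 1332 to 3222. There 4 genes rose for the mean, against 3.17% of all clusters, and 2 fell with siH19-1, against 4.34%. With siH19-2, 3 rose, against 5.01%, and 5 fell, against 19.1%. Between the siRNAs, 7 were lower, against 13%. The cause of these shifts was not tested.

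With the replicate number as a block, 7 rose and 1 fell for the mean, against 7.46% and 9.08% of all clusters. With siH19-1, 5 rose and 2 fell, against 3.8% and 4.86%, and with siH19-2, 6 rose and 2 fell, against 13.8% and 12.8%. The block ended the TRIAP1 call with siH19-2 (adjusted p = 0.0531) and brought KITLG past the threshold with siH19-1 (adjusted p = 0.0202). The numbers are not known to pair the cultures: deviations of same-numbered arrays correlated at 0.29, 0.20 and 0.20 between groups. Over the 6 fits that each left out 1 array, 1 to 3 genes rose and 0 to 1 fell for the mean, 0 to 1 rose and 0 to 1 fell with siH19-1, 0 to 6 rose and 1 to 2 fell with siH19-2, and 0 to 4 were higher and 1 to 4 lower between the siRNAs. Without either siH19-1 array, 0 clusters in all were called with siH19-1 by limma, with 3939 and 3805 at an unadjusted p under 0.05.

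Directions turned for DDB2 with siH19-2 (0.06) and, between the siRNAs, for CDKN1A (0.0975), TP53INP1 (0.0925), TRIAP1 (0.1425) and FBXO22 (0.3225), all under scaling to the rows outside transcript clusters. GDF15 with siH19-1 was -0.00375 under spike scaling, and over the single-array omissions it ran from -0.405 to 0.965 for the mean, from -0.645 to 0.725 with siH19-1 and from -0.165 to 1.205 with siH19-2. FBXO22 ran from -0.10 to 0.01 between the siRNAs. None of these was called in the fit reported above. The alternative of averaging several clusters of a gene was not run, since each gene had 1. Among the alternatives, at most 4.42% of all clusters rose with siH19-1, and 2.22% to 49.1% with siH19-2. At most 6.03% fell with siH19-1, and 2.39% to 19.1% with siH19-2. Over all alternatives, the other p53 targets that rose numbered 0 to 6 with siH19-1 and 2 to 17 with siH19-2, and those that fell 0 to 2 and 1 to 14. The upstream regulators that rose numbered 0 to 2 and 0 to 12, and those that fell 0 to 3 and 0 to 6. The genes under p21 and DREAM that fell numbered 0 to 8 and 4 to 15.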
